A study of Mus musculus with 20 samples.

Results

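Of 20 mice whose mammary glands were profiled, 10 later had a mammary tumor, and 3 of those had received tamoxifen while 7 had received placebo. Glands of the 3 tamoxifen animals were compared with glands of the 7 placebo animals. Members were chosen by the outcome and treatment that the labels record, with no measured value. All 20 animals were FVB/N females heterozygous for the transgene of line 1372-1 TgN(Nrl-tgfalpha)29EPS, in which the neu-related lipocalin (NRL) promoter drives transforming growth factor alpha (TGFa). At 8.5 weeks of age they received an implant under the skin that released 5 mg tamoxifen, or an implant of carrier without tamoxifen (placebo). A number 4 gland free of tumor was taken at 20.5 to 21 weeks, 4 weeks after treatment ended, so that no gland was a tumor. Animals were then watched for tumors until at most 2 years of age. The remaining 7 tamoxifen and 3 placebo animals had no tumor in that time, and their arrays enter the choice of probe sets, the filter, the component analysis of 20 arrays and the shared fit. Their own treatment difference is given beside the test of the difference between outcomes.

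Tamoxifen binds the oestrogen receptor and blocks it in much of the breast, while acting as a partial oestrogen in some other tissues. In the mammary epithelium the receptor sits in hormone-sensing luminal cells, which pass signals on to luminal progenitors and to basal, contractile cells. Prolactin acts through Jak2 and Stat5 on alveolar cells, where Stat5 and Elf5 switch on the milk protein genes. TGFa is a ligand of the epidermal growth factor (EGF) receptor, a driver of growth and survival of mammary epithelium.

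Expression values are log2 RMA, the summarised and normalised brightness of an Affymetrix probe set, from 1 array per animal. Each gene is represented by its probe set of highest mean over the 20 arrays, and 12499 of 18194 genes exceeded 6.85, the median over all values, in 3 or more arrays and were tested. Values of tamoxifen animals are given in the order 1, 2 and 10, and differences are tamoxifen minus placebo with their standard error (SE). The number of arrays limits the precision. Between the 10 arrays, placebo animals 8 and 7 stood apart, at -37.71 and -22.89 on the first principal component (43.98% of the variance), against -0.62 to 12.08 in the other 8. Over all 20 arrays placebo 9 was next on the same side, so results are also given without placebo 7, 8 and 9. The median standard deviation (SD) of a gene was 0.0845 among tamoxifen animals, 0.146 among placebo animals and 0.102 among placebo animals without those 3. Fat and epithelium were both well measured, with Adipoq, the adipocyte hormone adiponectin, between 13.79 and 14.15 and the luminal keratin gene Krt18 between 10.45 and 11.60 in the 10 glands.

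No gene passed the threshold of 0.05 after Benjamini-Hochberg adjustment in limma (0 of 12499, 0%), and the smallest adjusted p was 0.418. The 3 smallest unadjusted p-values were those of Ecrg4, Csn1s1 and Muc1, a secreted peptide, a casein and an apical mucin, all lower in the tamoxifen glands. Ecrg4 and Muc1 exceeded the filter level in placebo animals with later tumors and in no other group, so they were tested because they were high there. The same holds for 48 of the genes tested, of which 28 were lower unadjusted and 10 did not overlap. At an unadjusted p under 0.05, 325 genes were higher (2.6%) and 550 lower (4.4%) with tamoxifen, together 7% of genes. In 194 genes every tamoxifen animal lay above every placebo animal (1.55% of genes), and in 247 every one lay below (1.98%). A difference of at least 1 on the log2 scale was seen in 31 genes that were lower and 7 that were higher. Without placebo 7, 8 and 9 the count after adjustment was again 0, with a smallest adjusted p of 0.128. Unadjusted, 109 genes were then higher (0.872%) and 336 lower (2.69%), and 266 of these 445 were among the 875 found with all 10 animals. Every difference between these 3 and 7 animals given below is thus a measured value that did not pass the adjusted threshold.

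Of all genes tested, 3 casein genes had the largest differences, and the promoters of a pair of them are shown because both hold the sequence that Stat5 factors bind. Csn1s1 (Entrez ID 12990) encodes an alpha-casein and Csn2 (Entrez ID 12991) beta-casein. They are neighbours on chromosome 5, at 87666208 to 87682578 and 87692619 to 87699429 of GRCm38. The sequences run 5′ to 3′ from 250 bases before to 50 bases after a start site in RefSeq, and capitals mark the Stat5 motif TTCNNNGAA. They are RefSeq sequences of GRCm38.p6, from chr5:87665958-87666257 on the plus strand and chr5:87699376-87699675 on the minus strand. The start sites are 87666208, the first base of Csn1s1, and 87699425, which lies just inside the outer bound of Csn2.
Csn1s1: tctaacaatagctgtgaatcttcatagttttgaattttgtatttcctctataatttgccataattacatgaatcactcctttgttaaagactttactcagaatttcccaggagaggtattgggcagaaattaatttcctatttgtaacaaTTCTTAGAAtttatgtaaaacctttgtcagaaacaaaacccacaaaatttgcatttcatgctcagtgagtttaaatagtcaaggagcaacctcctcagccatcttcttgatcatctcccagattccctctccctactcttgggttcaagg
Csn2: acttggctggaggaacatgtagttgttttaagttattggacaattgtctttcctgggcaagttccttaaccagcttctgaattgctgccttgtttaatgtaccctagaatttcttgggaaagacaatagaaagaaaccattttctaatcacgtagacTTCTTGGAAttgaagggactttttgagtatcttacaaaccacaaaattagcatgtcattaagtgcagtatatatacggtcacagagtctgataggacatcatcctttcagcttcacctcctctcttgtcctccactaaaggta
Counted from that start site, the motif's first base lies at -100 in Csn1s1 and at -93 in Csn2. Searched on both strands, it is present in 8.3% of all promoters of this length (2726 of 32851). Of 46 genes considered, those with the smallest p-values and a fixed set of reference genes, 38 matched a promoter, and 4 hold the motif: both caseins, Dcdc2a and Esr1. Among the promoters of those genes, 4 of 44 hold it. The full palindromic oestrogen response element is in 23 of all promoters (0.07%) and in 0 of those genes' promoters. These matches describe letters in the window and say nothing of binding. Csn1s2a, the third casein, was not among the 46 genes, so its promoter was not searched.

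Csn1s1 read 7.27, 10.14 and 10.64 in the tamoxifen animals, against a lowest value of 10.89, a median of 12.76 and a highest of 13.72 in placebo animals. All 3 tamoxifen glands lay below all 7 placebo glands, with tamoxifen 10 just under placebo 2, the lowest placebo gland. The mean was 9.35 ± 1.82 against 12.56 ± 1.13 (SD, 3 and 7 animals), a difference of -3.21 ± 0.66 or 9.25-fold (limma, unadjusted p = 0.000104, adjusted p = 0.557). Without placebo 7, 8 and 9 it differed by -2.52, and the groups still did not overlap.

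For Csn2 the tamoxifen values were 5.56, 9.58 and 11.96, and the placebo values had a lowest of 9.23, a median of 13.44 and a highest of 14.13. The groups overlapped through placebo 2, the only placebo gland under 12.43. Csn2 differed by -3.91 ± 1.13 (limma adjusted p = 0.703), and a further probe set for it by -3.62. In tamoxifen 1 it was dimmer than the filter level of 6.85, which leaves the fold uncertain in size. The third casein, Csn1s2a, named after its values were seen, read 4.81, 8.49 and 10.85 against 7.51, 12.71 and 13.97, a difference of -4.02 ± 1.17. It too was below the filter level in tamoxifen 1, so its size is uncertain and so is the order of the caseins. For it tamoxifen 10 lay above both placebo 2 (7.51) and placebo 4 (10.75). Wap, whey acidic protein, read 6.84, 6.54 and 7.0 with tamoxifen, while placebo animals spread from 6.76 through a median of 7.62 to 13.93. Its high values came from placebo 9 (13.93) and placebo 10 (11.16), and it differed by -2.19 ± 1.04 (adjusted p = 0.705). Lalba, alpha-lactalbumin, the milk sugar cofactor, differed by -0.87 ± 0.45 with overlapping groups.

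Across the milk protein and alveolar list, 14 of 16 genes passed the filter, which a gene can pass through the placebo animals alone. The median difference was -1.23, beside -0.0114 over all genes tested. Of the 14, 10 were lower at an unadjusted p under 0.05 (background 4.4%), 0 were higher, and 3 had groups that did not overlap (background 1.98%). Of those 3, Muc1 and Folr1 passed the filter through the placebo animals with later tumors alone. Without them, a count chosen after seeing the data, 8 of 12 were lower (4.19% of all genes treated the same way) and 1 did not overlap (1.9%), Csn1s1. Per animal, the mean of the list relative to the 10 animals was -1.73, -0.88 and -0.43 with tamoxifen, and from -0.62 to 1.95 with placebo. Tamoxifen 10 lay above placebo 2, so the groups overlapped on the list mean, and placebo 9 was the highest. The median difference was -0.71 without placebo 7, 8 and 9, and 8 of 14 genes were then lower unadjusted (background 2.69%). In these bulk samples fewer alveolar cells and less milk protein RNA per cell cannot be told apart.

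**Figure D1:**
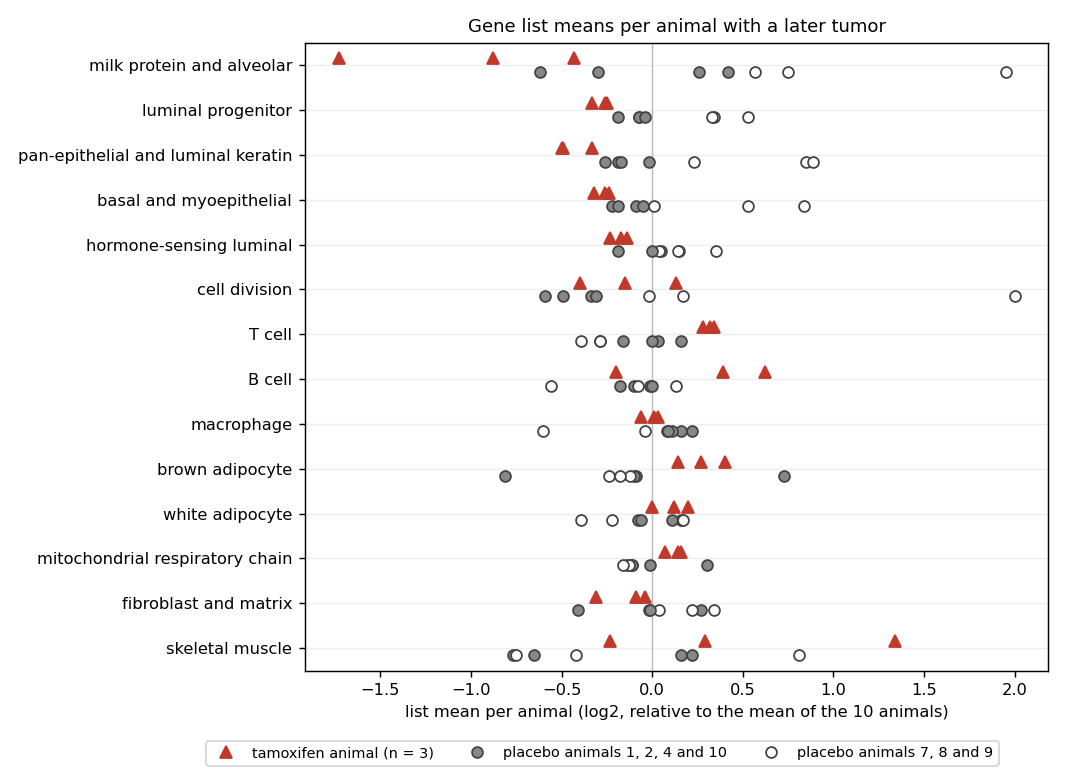
Mean of each gene list per animal (x axis, log2 relative to the mean of the 10 animals with later tumors), with the 3 tamoxifen animals as triangles and the placebo animals as circles, open for placebo 7, 8 and 9. Tamoxifen animals lie lowest on the pan-epithelial list (-0.50 to -0.33) and highest on the T cell list (0.28 to 0.34), and placebo 8 stands at 2.00 on the cell division list.

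The 12 lower genes of smallest p included further secreted and surface proteins of epithelial cells. Ecrg4 (Entrez ID 78896, chromosome 1, 43730602 to 43742564), which encodes a secreted peptide precursor, had the smallest p of all genes. It read 6.13, 6.19 and 6.54 with tamoxifen and 6.83, 7.20 and 7.92 (lowest, median, highest) with placebo, with no overlap. The difference was -0.95 ± 0.18 (limma unadjusted p = 3.34e-05, adjusted p = 0.418) and -0.90 without placebo 7, 8 and 9. All 3 tamoxifen values lay below the filter level, where a probe set gives little signal, so the fold of 1.93 is uncertain.

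Chil1 (Entrez ID 12654), a chitinase-like glycoprotein secreted by mammary epithelium and macrophages, read 7.27, 7.82 and 7.57 against placebo values of 7.81, 8.81 and 9.80. Only placebo 8, at 7.81, reached the tamoxifen range. Chil1 differed by -1.29 ± 0.29 (adjusted p = 0.69), and by -1.19 without placebo 7, 8 and 9.

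Among the mucins, which coat the apical surface and the milk fat globule, Muc1 read 6.64, 6.60 and 6.63 against 6.99, 7.32 and 7.84 in placebo animals. Muc15 read 8.51, 8.54 and 8.60 against 9.05, 10.60 and 12.75. Neither mucin overlapped between groups, and the tamoxifen glands were nearly alike while the placebo glands spread widely. The differences were -0.74 ± 0.16 for Muc1 (adjusted p = 0.557) and -2.25 ± 0.61 for Muc15 (adjusted p = 0.703). Placebo 7, 8 and 9 held the 3 highest values for both, and without them the differences were -0.47 and -1.24.

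Fcgbp, a large mucin-like protein that binds the Fc part of IgG, read 9.48, 9.84 and 10.05 with tamoxifen and 10.08, 10.69 and 11.58 with placebo. Here placebo 4 was the highest, and the difference of -1.03 ± 0.25 was -0.95 without placebo 7, 8 and 9. Folr1, a folate receptor, differed by -1.25 ± 0.34 and Slc39a8, a zinc and metal importer, by -0.89 ± 0.23. For both the groups did not overlap, and the differences were -0.69 and -0.48 without placebo 7, 8 and 9. The remaining members were Fzd3, a Wnt receptor (-0.54 ± 0.14), Fhod3, an actin-assembling formin (-0.61 ± 0.16), Scnn1g, the gamma subunit of the epithelial sodium channel (-0.36 ± 0.09), and Fam174b (-0.34 ± 0.08). None of these 4 overlapped between groups, and all had an adjusted p of 0.703. The tamoxifen values of Muc1, Folr1, Scnn1g and Fhod3 also lay below the filter level. Like Ecrg4 and Muc1, the genes Folr1, Scnn1g and Fhod3 exceeded it only in placebo animals with later tumors. They were thus tested because they were high there.

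**Figure D2:**
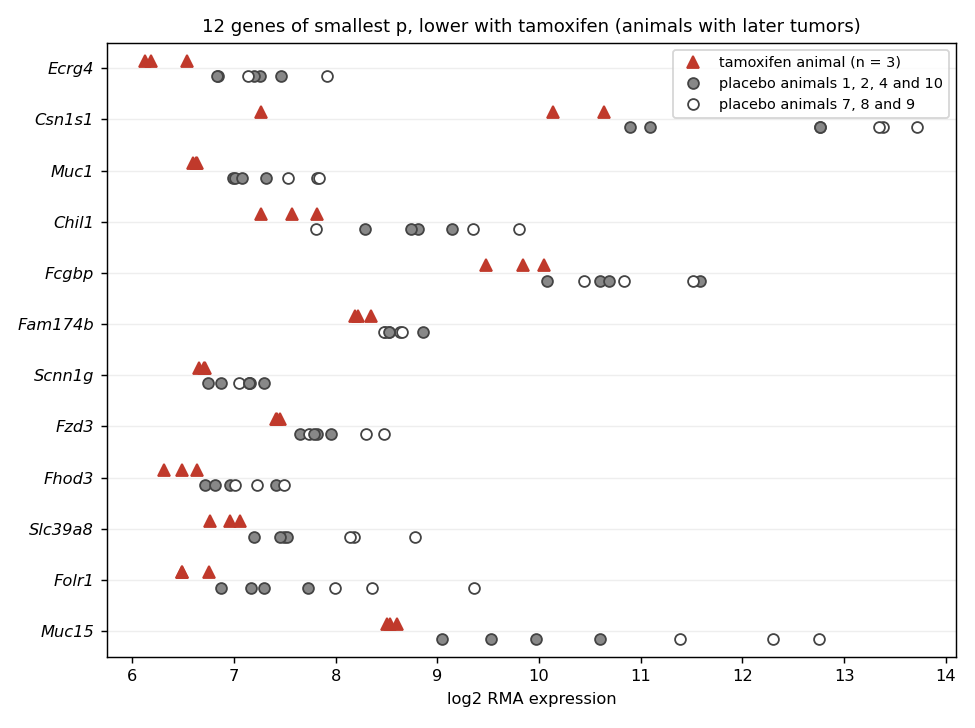
The 12 genes of smallest p among those lower with tamoxifen, as log2 RMA expression per animal (x axis), tamoxifen animals as triangles and placebo animals as circles, open for placebo 7, 8 and 9. Csn1s1 spans 7.27 to 13.72, and in every gene but Chil1 the triangles lie left of all circles.

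General epithelial genes were also lower with tamoxifen in most cases, by less when 3 placebo animals were left out. On the pan-epithelial and luminal keratin list, 13 of 18 genes were lower at an unadjusted p under 0.05 (background 4.4%), 0 were higher and 7 did not overlap (background 1.98%), with a median difference of -0.62. The list mean per animal was -0.50, -0.49 and -0.33 with tamoxifen and from -0.26 to 0.89 with placebo, without overlap. Placebo 7 and 8 stood at 0.85 and 0.89 and placebo 9 at 0.23, while the other 4 placebo animals lay between -0.26 and -0.02. Without those 3 the median difference was -0.30, with 4 genes lower unadjusted (background 2.69%) and 7 not overlapping (background 4.94%). Tjp3 passed the filter through placebo animals with later tumors alone. With all 10 animals but without Tjp3, 12 of 17 were lower unadjusted (4.19% of all genes treated the same way) and 6 did not overlap (1.9%). The mean level of the 18 genes was 8.53 to 8.69 in tamoxifen and 8.77 to 9.91 in placebo glands.

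Epcam, an adhesion molecule of epithelial cells, read 10.19, 10.67 and 10.71 against placebo values of 10.84, 11.27 and 12.33. It differed by -0.90 ± 0.30 (limma adjusted p = 0.703) without overlap, although a further probe set differed by -0.01. Esrp1, a splicing regulator of epithelial cells, read 7.16, 7.03 and 7.08 against 7.28, 7.88 and 9.68. The highest 2 placebo values of Esrp1 were those of placebo 7 and 8, and its difference of -1.14 ± 0.41 was -0.47 without placebo 7, 8 and 9. Tjp3, a tight junction protein, and Spint1, a membrane protease inhibitor, differed by -0.98 ± 0.32 and -0.53 ± 0.19 without overlap, Tjp3 with all 3 tamoxifen values below the filter level. Krt18 read 10.45, 10.62 and 11.06 with tamoxifen and 10.75, 11.33 and 11.60 with placebo, a difference of -0.60 ± 0.27 with overlap.

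Luminal progenitor genes had a median difference of -0.40 over 15 tested genes, of which 4 were lower unadjusted (background 4.4%), 0 higher and 2 not overlapping (background 1.98%). Without Rspo1, which passed the filter through placebo animals alone, the median was -0.26. Elf5 (Entrez ID 13711), a transcription factor of progenitor and alveolar cells, read 8.96, 9.11 and 8.94 against 9.46, 10.03 and 11.90. It differed by -1.46 ± 0.46 (adjusted p = 0.703) and by -0.72 without placebo 7, 8 and 9, and a dimmer probe set differed by -0.50. Plet1, a surface protein of luminal progenitors, read 8.36, 8.81 and 8.90 against 9.07, 9.56 and 11.14. As with Elf5, placebo 7, 8 and 9 held the 3 highest values, and the difference of -1.31 ± 0.44 was -0.60 without them. Kit, a receptor tyrosine kinase of the progenitors, differed by -0.40 ± 0.24 with overlap. Cd14, a lipopolysaccharide co-receptor, and Lbp, the lipopolysaccharide binding protein, differed by -0.50 ± 0.22 and -0.53 ± 0.23. Lcn2, the mouse counterpart of the lipocalin whose promoter drives the transgene, differed by -0.80 ± 0.40 with overlap. The list median was -0.10 without placebo 7, 8 and 9, with 1 gene lower unadjusted (background 2.69%).

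Basal and myoepithelial genes had a median difference of -0.44 (12 of 12 tested negative, background 54.3%), with 5 lower unadjusted (background 4.4%) and 5 not overlapping (background 1.98%). Trp63, a transcription factor of basal cells, and Oxtr, the oxytocin receptor, had the largest differences, both -0.65, while the 4 smallest p-values were those of contractile genes. Cnn1, calponin, read 7.83, 7.84 and 7.92 against 8.22, 8.30 and 9.19, and Myh11, smooth muscle myosin, read 8.62, 8.86 and 8.95 against 9.06, 9.15 and 9.82. Both were highest in placebo 7, and they differed by -0.59 ± 0.20 and -0.42 ± 0.14. Acta2, smooth muscle actin, and Tagln, transgelin, differed by -0.45 ± 0.18 and -0.46 ± 0.19, again without overlap. These 4 are also made by smooth muscle of vessels. Krt14, a basal keratin gene, differed by -0.40 ± 0.35 with overlap, and by 0.08 without placebo 7, 8 and 9. Without those 3 the list median was -0.14, with 9 negative, 3 positive and 2 lower unadjusted (background 2.69%).

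With all 10 animals the hormone-sensing luminal list had a smaller median difference, -0.20 over 10 tested genes. Of these, 1 was lower unadjusted (background 4.4%) and 0 did not overlap (background 1.98%). Without placebo 7, 8 and 9 the median was -0.13, beside -0.10 for luminal progenitor and -0.14 for basal genes. In that fit 1 gene of the list was lower unadjusted (background 2.69%). Esr1, the oestrogen receptor, read 9.70, 10.31 and 9.70 against 9.72, 10.02 and 10.72, and differed by -0.20 ± 0.21 (adjusted p = 0.846). Pgr, the progesterone receptor and an oestrogen target, read 8.24, 7.68 and 8.69 against 7.91, 8.82 and 9.59, and differed by -0.52 ± 0.30. Both receptors overlapped between groups. Without placebo 7, 8 and 9 the differences were larger, -0.36 for Esr1 and -0.83 for Pgr. Gata3, a luminal transcription factor, was the member lower unadjusted with all 10 animals (-0.63 ± 0.25). Greb1, an oestrogen target, lay below the filter level in all 10 glands (6.35 to 6.63). The oestrogen response list had a median of 0.04, with 0 of 14 genes higher (background 2.6%) and 1 lower unadjusted (background 4.4%), Amotl1 (-0.24 ± 0.11). Without placebo 7, 8 and 9 its median was -0.05, with 2 genes lower unadjusted (background 2.69%) and 0 higher. Prolactin and Stat5 signalling genes had a median of -0.06, with 3 of 12 lower unadjusted (background 4.4%) and 0 without placebo 7, 8 and 9. They were Stat3, a transcription factor active when the gland regresses (-0.23 ± 0.09, without overlap), Igfbp5, a binding protein of insulin-like growth factors (-0.31 ± 0.14), and Stat5a (-0.24 ± 0.12).

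Several probe sets are annotated to the mouse gene Tgfa, and no label says whether any of them reads the transgene. Tgfa (Entrez ID 21802) read 8.30, 8.41 and 8.22 with tamoxifen and 8.49, 8.98 and 10.27 with placebo, without overlap. Placebo 7, 8 and 9 read 10.01, 9.99 and 10.27 and the other placebo animals 8.49 to 8.98. Tgfa differed by -0.97 ± 0.31 (limma adjusted p = 0.703), and by -0.37 without those 3. Dimmer probe sets for it differed by 0.20 and -0.18. Among the receptors, Erbb2 differed by -0.36 ± 0.13 without overlap and Erbb3 by -0.59 ± 0.25 with overlap, while Egfr itself differed by 0.05 ± 0.07. Of 6 genes tested on the EGF receptor family list, 3 were lower unadjusted (background 4.4%) and 0 higher, and 1 was lower without placebo 7, 8 and 9 (background 2.69%).

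T cell genes lay the other way. On the T cell list 15 of 16 tested genes were higher with tamoxifen at an unadjusted p under 0.05 (background 2.6%), 0 were lower, and in 12 the groups did not overlap (background 1.55%), with a median difference of 0.48. The list mean per animal was 0.28, 0.34 and 0.32 with tamoxifen and from -0.39 to 0.16 with placebo. Placebo 8, 9 and 7 held the 3 lowest values, at -0.39, -0.29 and -0.29. Without them the median was 0.34 and 12 genes again did not overlap (background 2.98%), but 2 were higher unadjusted (background 0.872%). The mean level of these genes was 9.40 to 9.46 in tamoxifen and 8.72 to 9.28 in placebo glands. Placebo 7 and 8 were the highest on the pan-epithelial list and among the lowest on this one. The number 4 gland can include its lymph node, which the labels do not mention, and its part in the T cell values was not tested.

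Cd3e (Entrez ID 12501, chromosome 9, 44998735 to 45009663), a chain of the T cell receptor complex, read 10.04, 10.08 and 10.11 against 9.47, 9.69 and 9.86. The groups did not overlap, and Cd3e differed by 0.39 ± 0.11 (limma unadjusted p = 0.00175, adjusted p = 0.703) and by 0.29 without placebo 7, 8 and 9. Cd4, the co-receptor of helper T cells, read 9.44, 9.63 and 9.63 against 8.91, 9.12 and 9.32, a difference of 0.45 ± 0.14. Cd27, a co-stimulatory receptor of the tumor necrosis factor family, read 8.50, 8.36 and 8.49 against 7.36, 7.74 and 7.99. Its difference of 0.76 ± 0.21 was the largest of the 12 higher genes of smallest p. Lat, an adaptor of T cell receptor signalling, differed by 0.51 ± 0.17 with overlap, and Skap1, an adaptor of T cell adhesion, by 0.46 ± 0.16 without. Lef1, a Wnt-pathway transcription factor that T cells also use, differed by 0.54 ± 0.19 without overlap.

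Of the 12 higher genes only Cd3e and Cd4 are on the T cell list, and none is on the B cell list. In which cells the others are expressed was not tested. Clcf1, a cytokine of the interleukin-6 family, read 7.67, 7.76 and 7.96 against 7.36, 7.40 and 7.53, and further probe sets for it differed by 0.63 and 0.24 beside 0.38 ± 0.10. Dapl1 read 8.24, 8.10 and 8.09 against 7.24, 7.53 and 7.78, a difference of 0.65 ± 0.18. The probe set annotated to Mir142, a microRNA gene of blood cells, differed by 0.36 ± 0.10, and it does not measure the mature microRNA. Gm4802, a predicted gene with the smallest p of those higher (0.000271, adjusted p = 0.69), differed by 0.28 ± 0.06 with overlap. Pptc7, a mitochondrial phosphatase (0.21 ± 0.06), Dcdc2a, a doublecortin-domain protein (0.21 ± 0.06), and Tmem156 (0.44 ± 0.13) did not overlap. Tob2, an antiproliferative protein (0.43 ± 0.13), and Cep68, a centrosome protein (0.25 ± 0.07), rest on the probe set used. Others differed by -0.07 to 0.27 for Tob2 and by -0.08 and 0.08 for Cep68.

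**Figure D3:**
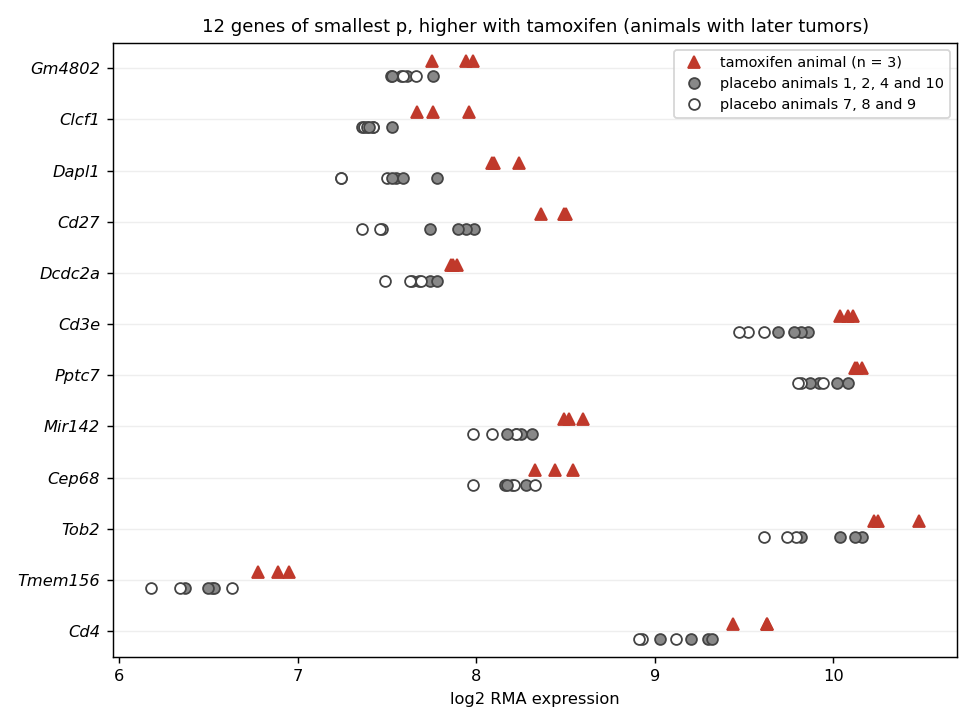
The 12 genes of smallest p among those higher with tamoxifen, as log2 RMA expression per animal (x axis), tamoxifen animals as triangles and placebo animals as circles, open for placebo 7, 8 and 9. Triangles lie right of all circles except in Gm4802 and Cep68. Cd3e and Cd4, which are on the T cell list, differ by 0.39 and 0.45, and Cd27, which is not, by 0.76.

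B cell genes were less uniform. Of 14 tested, 13 had a positive difference (background 45.7%) with a median of 0.40, but 1 was higher unadjusted (background 2.6%). Fcer2a, the low-affinity IgE receptor, was that gene (9.51, 9.64 and 9.62 against 8.85, 9.07 and 9.42, a difference of 0.49 ± 0.21). Cd79a, a chain of the B cell receptor, read 9.10, 9.60 and 10.07 against 8.73, 9.22 and 9.41. Tamoxifen 1 lay inside the placebo range and the other tamoxifen animals above it, for Cd79a as for the list mean (-0.20, 0.39 and 0.62 against -0.56 to 0.13). MHC class II genes had a median of 0.19 with 9 of 9 positive (background 45.7%) and 1 higher unadjusted (background 2.6%), H2-Ob (0.62 ± 0.28). Macrophage genes had a median of -0.02 with 0 of 18 higher (background 2.6%) and 1 lower unadjusted (background 4.4%), Cd14. Without placebo 7, 8 and 9 their median was -0.09 with 0 lower unadjusted (background 2.69%). In 4 of them every tamoxifen animal then lay below every placebo animal (background 4.94%). Chemokines and their receptors had a median of 0.03 with 1 of 20 higher unadjusted (background 2.6%). That gene was Ccr7, the receptor that guides lymphocytes and dendritic cells to lymph nodes (9.69, 9.66 and 9.44 against 8.69, 9.03 and 9.42, without overlap). Interferon response genes had a median of -0.11 with 0 of 18 past an unadjusted p of 0.05 in either direction. Without placebo 7, 8 and 9 their median was -0.25, with 2 lower unadjusted (background 2.69%) and 0 higher. In 4 of them every tamoxifen animal then lay below every placebo animal (background 4.94%). Placebo 8 had the lowest list mean of the placebo animals, -0.53.

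Adipose and muscle genes were measured in the same glands. Brown adipocyte genes had a median of 0.53 over 11 tested, with 4 higher unadjusted (background 2.6%) and 0 not overlapping. Cidea, a lipid droplet protein, read 13.31, 13.18 and 13.24 against 12.35, 12.62 and 13.32, and Cox7a1, a subunit of cytochrome oxidase, read 10.85, 10.43 and 11.06 against 8.03, 9.87 and 11.06. Placebo 10 was as high as the tamoxifen glands in both, and placebo 2 was the lowest in Cox7a1. Their differences were 0.55 ± 0.20 and 0.98 ± 0.45. Otop1, a proton channel, and Cox8b, a further oxidase subunit, differed by 0.79 ± 0.33 and 0.53 ± 0.25, while Ucp1, the uncoupling protein of brown fat, differed by 0.64 ± 0.50. Without placebo 7, 8 and 9 the list median was 0.41 and 0 genes passed unadjusted. Mitochondrial respiratory chain genes had a median of 0.19, positive in 23 of 23 genes (background 45.7% positive), with 0 past an unadjusted p of 0.05. White adipocyte genes had a median of 0.10, with 0 of 13 past that level and Adipoq at 0.06 ± 0.07. Fatty acid and cholesterol synthesis genes had a median of -0.05, with 0 of 20 past it.

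Skeletal muscle genes, which can come from muscle taken with the gland (not tested), had a median of 0.64. Their difference was positive in 20 of 20 genes (background 45.7%), with 0 past an unadjusted p of 0.05. The list mean was 0.29, 1.34 and -0.23 with tamoxifen and from -0.77 to 0.81 with placebo, and the mean level of these genes 6.95 to 8.52 against 6.41 to 7.99. Acta1, skeletal actin, read 10.02, 11.73 and 8.70 against 6.59, 8.61 and 10.91, and differed by 1.64 ± 0.92. The range within each group was wider than the difference between their means.

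Cell division genes turned with the animals included. Their median difference was -0.22, negative in 15 of 15 genes (background 54.3%), and 0.28 without placebo 7, 8 and 9, positive in 15 of 15, of which 3 were higher unadjusted (background 0.872%). Mki67, a marker of dividing cells, read 7.42, 8.18 and 8.65 against 7.07, 7.88 and 10.77. The highest value was that of placebo 8, whose list mean was 2.00 against -0.59 to 0.17 in the other placebo animals. Mki67 differed by -0.22 ± 0.53, and by 0.54 without placebo 7, 8 and 9. Fibroblast and matrix genes had a median of -0.13, with 22 of 23 negative (background 54.3%) and 0 past an unadjusted p of 0.05, and 18 negative and 5 positive without placebo 7, 8 and 9. Thbs1, the matrix protein thrombospondin, differed by -0.80 ± 0.42, and Timp1, a protease inhibitor, by -0.69 ± 0.33 with its highest value in placebo 8. Basement membrane and endothelial genes had a median of -0.13 with 1 of 17 lower unadjusted (background 4.4%), Cldn5, an endothelial claudin (-0.35 ± 0.15). Without placebo 7, 8 and 9 their median was -0.18, with 2 lower unadjusted (background 2.69%). In 6 of the 17 every tamoxifen animal then lay below every placebo animal (background 4.94%). Steroid and drug metabolising genes had a median of 0.03, and of 16 tested 1 was higher unadjusted (background 2.6%), Akr1cl, and 0 lower (background 4.4%).

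**Figure D4:**
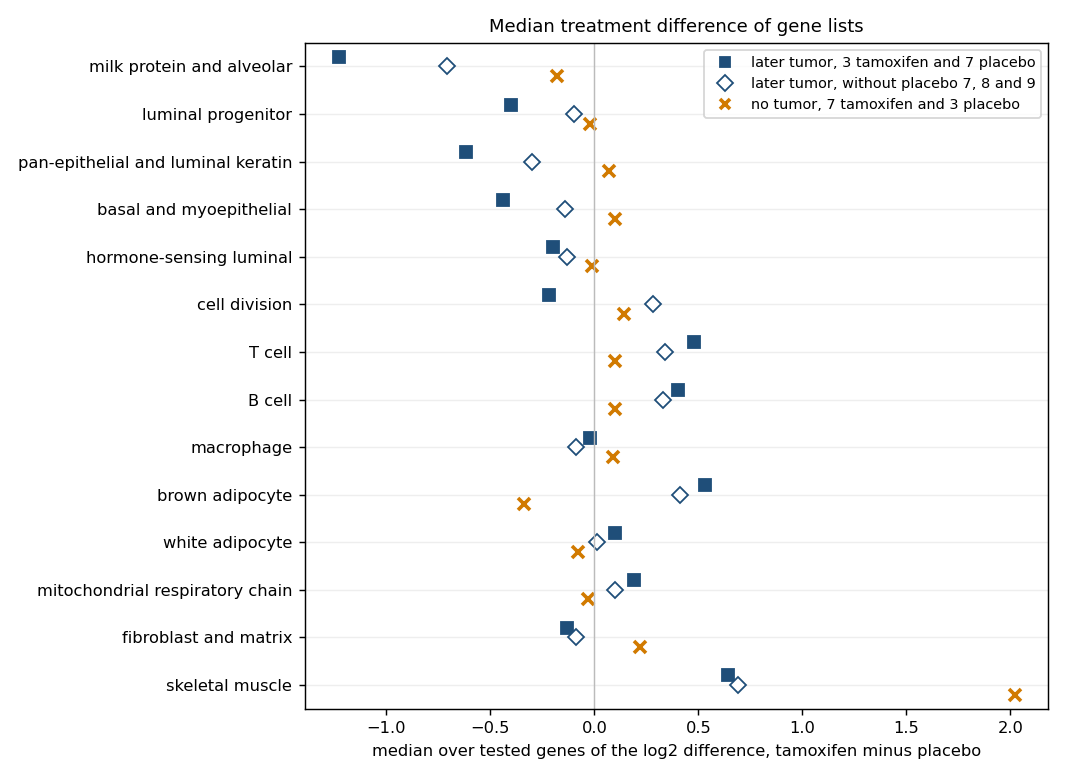
Median over the tested genes of each list of the log2 difference tamoxifen minus placebo (x axis), for all 10 animals with later tumors (squares), without placebo 7, 8 and 9 (diamonds) and for the 10 animals without tumors (crosses). Milk protein and alveolar genes stand at -1.23, -0.71 and -0.18, and cell division genes lie at -0.22 and 0.28 for the first 2.

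Whether the treatment difference depended on the later outcome was tested as an interaction, the difference in animals with later tumors minus that in the 7 tamoxifen and 3 placebo animals without. No gene passed in limma (0 of 12499, 0%, smallest adjusted p = 0.26), and at an unadjusted p under 0.05 the difference was higher with a later tumor in 227 genes (1.82%) and lower in 338 (2.7%), together 4.52%. Among animals without tumors alone, 8 genes were higher with tamoxifen after adjustment (0.064%) and 0 lower, with 337 and 320 at an unadjusted p under 0.05. Genes called in one outcome and not in the other are not thereby shown to differ.

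Akr1cl (Entrez ID 70861, chromosome 1, 65013078 to 65032759), an aldo-keto reductase, had among the smallest interaction p-values. It read 9.13, 8.31 and 9.55 in tamoxifen animals with later tumors against 7.62, 7.90 and 8.78 in placebo animals, an overlap with placebo 1 and placebo 10 high. In the animals without tumors the tamoxifen values had a lowest of 10.06, a median of 11.76 and a highest of 12.57, and the placebo values were 7.93, 7.73 and 8.17. All 7 tamoxifen glands without a tumor thus lay above all 3 with one. The difference was 0.96 ± 0.39 with a later tumor and 3.76 ± 0.39 without, and the interaction was -2.80 ± 0.55 (limma unadjusted p = 5.8e-05, adjusted p = 0.26).

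Oxtr read 8.66, 8.81 and 8.71 against 9.03, 9.29 and 10.03 with later tumors, without overlap, a difference of -0.65 ± 0.36. Without tumors it differed by 1.75 ± 0.36, and the interaction was -2.40 ± 0.50 (adjusted p = 0.428). Gng12, a G protein gamma subunit, differed by -0.17 and 0.68 in the 2 outcomes, and Pifo, a cilium protein, by -0.05 and 0.64 (interaction adjusted p = 0.26 for both). Pifo exceeded the filter level only in tamoxifen animals without tumors, so it was tested because it was high there. Its difference of -0.05 is between values below that level. Zfp469, a zinc finger gene, differed by -0.12 and 0.40 (adjusted p = 0.795). In the other direction, Bmp6, a bone morphogenetic protein, differed by 0.33 and -0.52, Vldlr, a lipoprotein receptor, by 0.36 and -0.39, and Acsm3, an acyl-CoA synthetase, by 0.36 and -0.99. Dennd5b differed by 0.31 and -0.29, and Ell2, an elongation factor of transcription, by 0.24 and -0.35. All 5 had an interaction adjusted p of 0.938.

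**Figure D5:**
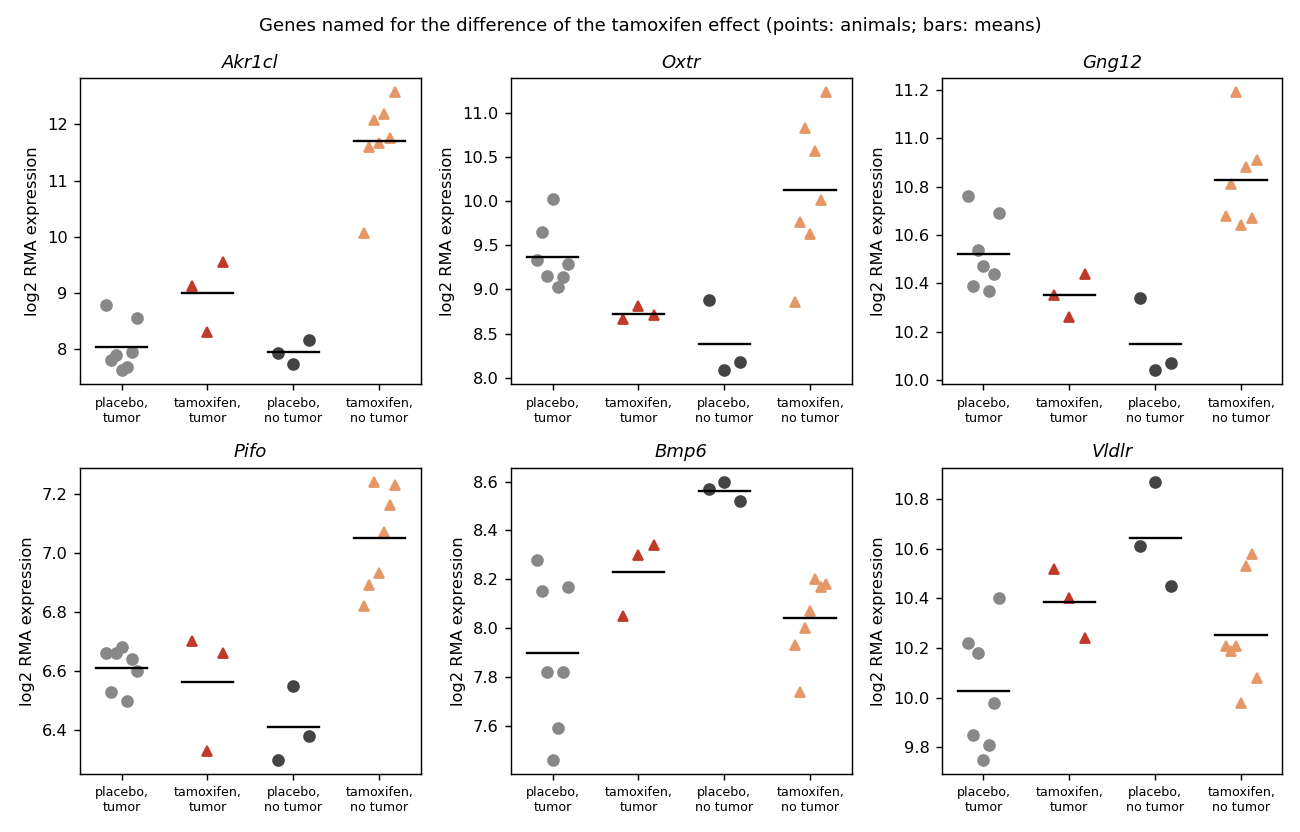
Log2 RMA expression (y axes) of 6 genes named for the difference of the tamoxifen effect, in the 4 groups of treatment and outcome, with a point per animal and a bar at each mean. Akr1cl differs by 0.96 between treatments with later tumors and by 3.76 without, and Oxtr by -0.65 and 1.75.

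Of the genes described above, the interaction for Csn1s1 was -3.08 (unadjusted p = 0.00365, adjusted p = 0.938), with a difference of -0.13 in animals without tumors. Csn1s1 was low there in both treatments, at 7.41 ± 0.49 in the 7 tamoxifen and 7.53 ± 0.89 in the 3 placebo glands (SD). Ecrg4 and Muc1 also differed little without tumors (-0.13 and 0.01). All their values in those animals lay below the filter level, so these small differences say little about the outcome. Pgr differed by 0.91 without tumors against -0.52 with tumors. At an unadjusted interaction p under 0.05, the difference was lower with later tumors in 7 of 18 pan-epithelial and 5 of 12 basal genes (background 2.7%). It was so too in 5 of 14 milk genes and 9 of 23 fibroblast and matrix genes, beside the same background. Of the fibroblast and matrix genes, 1 passed that level in the other direction (background 1.82%). Their median difference was 0.22 without tumors and -0.13 with later tumors. Within the animals with later tumors 0 of these 23 passed an unadjusted p of 0.05. The milk count includes Muc1 and Folr1, which passed the filter through placebo animals with later tumors alone. So did Tjp3 on the pan-epithelial list. For T cell genes the count was 0 of 16 in either direction, with median differences of 0.48 with and 0.10 without later tumors. The skeletal muscle list had a median difference of 2.02 in animals without tumors beside 0.64 with, and 0 of 20 genes reached an unadjusted interaction p of 0.05.

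When the mean of the pan-epithelial list was added to the fit as a covariate, the number of genes at an unadjusted p under 0.05 went from 875 to 160. Elf5 then differed by -0.24 ± 0.17 in place of -1.46, Tgfa by -0.32 ± 0.25 in place of -0.97 and Cd3e by 0.23 ± 0.11 in place of 0.39. Csn1s1 differed by -2.23 ± 0.68, Ecrg4 by -0.72 ± 0.19, Muc1 by -0.49 ± 0.15 and Chil1 by -1.18 ± 0.35. All 7 had a limma adjusted p of 1. The milk list median was -0.73, that of T cell genes 0.26 and that of luminal progenitor genes -0.11. That covariate is itself lower in the 3 tamoxifen animals, so the fit cannot tell a difference in gland makeup apart from a difference by treatment.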

How the data were processed

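Expression was measured in 20 mammary glands on Affymetrix arrays from biotin-labelled cRNA, per the labels. The deposited values are log2 expression per probe set, which the authors computed by RMA according to the submitters' processing notes. The sources used here do not give its version or the genome build. The values were used as deposited. Array medians lay between 6.82 and 6.89. Of 45101 probe sets, 34958 had 1 gene symbol in the platform table (34754 updated through the Entrez ID), 932 several and 9211 none; only the first were used.

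The probe set of highest mean over 20 arrays stood for each of 18194 genes, and the 12499 that exceeded 6.85 (the overall median value) in 3 or more arrays were tested. limma 3.58.1 in R 4.3.3 (lmFit, eBayes) was fitted to 4 group means on all 20 arrays, two-sided, with Benjamini-Hochberg adjustment over all genes tested at 0.05. The labels name biological replicates, 1 animal each. The fit pools the spread of all 4 groups (16 residual degrees of freedom). The procedure was tested on simulated data. Groups that do not overlap are those in which every tamoxifen animal lies on the same side of every placebo animal.

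The groups, the 34 gene lists (577 genes, 530 with a probe set) and the gene rule were chosen with earlier results of these data known. Named genes are the 12 higher and 12 lower genes of smallest p, 5 in each direction for the interaction, up to 4 members per list by moderated statistic, and a set of reference genes. List means average all members with a probe set, each centred on the 10 animals, while counts and medians use tested members. Same-numbered tamoxifen and placebo animals deviated from their group means with correlations of 0.00557, 0.339 and 0.0731 (numbers 1, 2 and 10), so numbers were not taken as pairs. Alternatives covered scaling, filters, probe sets, variance model, array weights, blocks, covariates and left-out animals. No batch is given in the sources used here. Gene positions are of GRCm38, from RefSeq.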

Additional observations from a re-analysis of the deposited data

Results flagged for a closer look

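Among the 7 placebo animals with later tumors, some values lay far from those of the other 6, by the gap to the nearest animal as a share of the range of the group. Of 155 sets of values tested this way, each a gene or list mean in 1 group, 21 held such a value. Chance alone gives about 1 in 20 separate sets, but these share animals and related genes, so the count cannot be read against that rate. Placebo 8 was highest for the cell division gene Cdk1 (11.11, others 7.85 to 8.79), for Timp1 (9.44, others 7.12 to 7.96), and for Pdia6, a protein disulphide isomerase (11.39, others 10.82 to 11.04). It was lowest for Ifih1, a sensor of viral RNA (8.28, others 8.67 to 8.92). Its list means were 2.00 for cell division, -0.60 for macrophage and -0.53 for interferon response genes. Placebo 7 was highest for the contractile genes Myh11 (9.82), Cnn1 (9.19) and Tagln (11.72) and lowest for Cd79a (8.73). Without placebo 7, 8 and 9 the tamoxifen differences were -0.28 for Myh11, -0.44 for Cnn1 and -0.23 for Tagln, with the same sign as before.

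Placebo 10 was highest for the respiratory chain genes Ndufb8 (13.07) and Sdhb (13.28) and for the mean of that list (0.30). Placebo 2 was lowest for Csn2 (9.23, others 12.43 to 14.13) and for Ucp1 (10.43, others 12.48 to 13.86). Placebo 4 was lowest for Krt18 (10.75) and for the mean of the blood genes (-0.27) and highest for Clcf1 (7.53), a value still below the 3 tamoxifen animals. Among the 7 tamoxifen animals without tumors, tamoxifen 3 was lowest for Akr1cl (10.06, others 11.60 to 12.57) and for Zfp469 (7.18, others 7.52 to 7.70).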

How the results depend on the processing

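The count of 0 genes for tamoxifen against placebo with later tumors held in 27 of 29 alternative settings, and the interaction count of 0 in 26 of 28. With array weights 2 genes were called, both lower with tamoxifen, Ecrg4 (limma adjusted p = 0.00779) and Chil1 (adjusted p = 0.0257), and for the interaction 1, Gng12 (adjusted p = 0.0438). Leaving out 1 animal at a time gave 0 to 1 calls, the 1 being an immunoglobulin kappa variable segment, higher without tamoxifen 1 (adjusted p = 0.0374), and it gave 0 for the interaction. With the replicate number as a block, 0 genes were called for the treatment and 2 for the interaction, Ccl8 and Pgr (both adjusted p = 0.00493). Over the settings the adjusted p of Ecrg4 ran from 0.00779 to 1, that of Chil1 from 0.0257 to 1 and that of Gng12 from 0.0438 to 0.999. The cause was not tested. Counts at an unadjusted p under 0.05 ran from 160 (pan-epithelial covariate) to 1460 (every probe set tested, more tests) beside 875, and from 431 without tamoxifen 2 or 537 without tamoxifen 1 to 1085 without placebo 10. Without placebo 7 and 8 the count was 514 and without 3 placebo animals 445. For the interaction they ran from 274 (pan-epithelial covariate) to 1018 (every probe set) beside 565, with 899 under array weights, and from 333 without tamoxifen 2 to 751.

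Of 3084 values of 111 gene results, 3049 kept direction and side of the threshold. All sign changes concern differences that did not pass. Mki67 differed by 0.25 with array weights, 0.60 with the replicate block, 0.54 without placebo 7, 8 and 9, 0.36 without 7 and 8, -0.50 to 0.19 over the fits without 1 animal (0.19 without placebo 8 and 0.11 without tamoxifen 1), and 0.76 and 0.14 with the epithelial and lymphocyte covariates. Cdk1 gave 0.06 with array weights, 0.33 with the block, 0.29 and 0.19 without the 3 or 2 animals, -0.47 to 0.08 without 1 animal (0.08 without placebo 8), and 0.51 and 0.01 with those covariates. Krt14 gave 0.17 with the block, 0.08 and 0.02 without the 3 or 2 animals, and 0.44 and 0.05 with those covariates. Adipoq gave -0.00 with the block, -0.01 and -0.02 without the 3 or 2 animals, and -0.04 with the epithelial covariate. With that covariate Kit gave 0.06 and Erbb3 0.04, and with the lymphocyte covariates Cd79a gave -0.04, Cd37 -0.05 and Btg2 -0.01. Cyp1b1 gave 0.02 with the block, Ckm -0.04 with the muscle covariate and Egfr -0.03 as the mean of its probe sets. With 3 tamoxifen animals and many values near the filter level, differences of dim genes are the least certain.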

Other observations

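Several further gene groups were measured in the same 10 glands, and the values below did not pass after adjustment. Among immediate early genes, transcription factors and RNA regulators induced soon after a stimulus, 3 of 15 were higher with tamoxifen at an unadjusted p under 0.05 (2.6% of all genes) and 0 lower. Fos read 9.96, 10.38 and 9.41 in tamoxifen animals 1, 2 and 10, against 8.44, 9.07 and 10.20 (lowest, median, highest) in placebo animals, a difference of 0.68 ± 0.29 (SE). Zfp36, which speeds the decay of cytokine messages, and Btg2, an antiproliferative protein, differed by 0.35 ± 0.16 and 0.34 ± 0.15. Of these 3 genes only Btg2 had groups that did not overlap. Of the p53 targets 1 of 9 was higher unadjusted (2.6% of all genes), Bbc3, a promoter of cell death (0.20 ± 0.09). In the unfolded protein response and secretion list 1 of 18 genes was lower unadjusted (4.4% of all genes) and 1 higher (2.6%). Pdia6 was the lower gene (10.44, 10.57 and 10.82 against 10.82, 10.99 and 11.39, a difference of -0.40 ± 0.12). Herpud1, a part of protein quality control, was the higher gene (0.26 ± 0.10).

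Of 13 Notch pathway genes 1 was lower unadjusted (4.4% of all genes), the ligand gene Dll1 (8.17, 8.31 and 8.39 against 8.40, 8.61 and 8.67, without overlap, -0.28 ± 0.08). Of 22 Wnt pathway genes 3 were lower unadjusted (4.4% of all genes) and 1 higher (2.6%). Without placebo 7, 8 and 9 the counts were 1 (2.69% of all genes) and 0 (0.872%). Rspo1 on this list passed the filter through placebo animals with later tumors alone. Without it 3 of 21 were lower (4.19% of all genes treated the same way). The receptor genes Fzd2 and Fzd7 differed by -0.29 ± 0.11 and -0.46 ± 0.21 and the ligand gene Wnt5b by -0.41 ± 0.18, while the higher gene was Lef1. Plasma cell genes split, with Igha, the constant region of IgA, at -0.88 ± 0.42 and Mzb1, a chaperone of antibody secretion, at 0.61 ± 0.32, and 0 of 9 past that level. Of 9 neutrophil granule genes tested, 2 were higher unadjusted (2.6% of all genes), Ngp (0.35 ± 0.12) and Csf3r (0.20 ± 0.09), while S100a9, a calcium-binding protein of neutrophils, differed by 0.84 ± 0.44. S100b, a glial calcium-binding protein that fat cells also make, was the 1 of 7 Schwann cell and nerve genes higher unadjusted (0.89 ± 0.42; 2.6% of all genes). Circadian clock, epidermis and blood genes had median differences of 0.08, 0.18 and -0.28, with 0 of 16, 0 of 8 and 0 of 2 past an unadjusted p of 0.05.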
